A study of Mus musculus with 74 samples.

Results

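The distal zinc finger region of mouse chromosome 4, which begins at base 145000001 of chr4 in mm10 and ends within Arhgef16, was described as 9300 windows of 1 kb, out of 2725532 windows on the 21 chromosomes. It was chosen by the share of its bases inside H3K9me3 peaks, which was high in several of the 10 lists, so the shares given here are a description, and no test was run on them. Of the 9300 windows, 8868 hold at least 50% assembled bases and could be scored. H3K9me3, trimethylation of lysine 9 of histone H3, was profiled by native ChIP-seq on micrococcal nuclease-digested chromatin, in 41 antibody libraries and 33 inputs.

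The lists come from cumulus cells (CC) of B6D2F1 females, the nuclear donors, from embryos in which such a nucleus had been placed in an enucleated B6D2F1 oocyte (somatic cell nuclear transfer, SCNT), and from zygotes of pronuclear stage 5 (PN5) after fertilization, obtained by mating C57BL/6 females with C57BL/6 males. All SCNT embryos had been activated by 6 h in SrCl2 with cytochalasin B. They were collected at 6 hours post activation (hpa, 5 antibody libraries) and 14 hpa (4), at the 2-cell (6), 4-cell (3), 8-cell (7) and morula (6) stages, and as the inner cell mass (ICM, 2) and trophectoderm (TE, 2) of blastocysts. CC had 4 antibody libraries and PN5 had 2. The authors pooled the libraries of a group before calling peaks, so each group is 1 list with no replicate error. The PN5 data came from an earlier publication and another strain, and the type of embryo, the strain and the study cannot be told apart in any comparison with PN5. The activation agents and the cumulus donor are shared by every SCNT list.

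H3K9me3 marks heterochromatin, which is compact and mostly silent. KRAB zinc finger genes, which encode repressors that bind DNA through arrays of C2H2 zinc fingers, lie in tandem clusters that carry this mark in many cell types, and their proteins bring the corepressor TRIM28 and the H3K9 methyltransferase SETDB1 to their targets, many of them retrotransposons. Marked chromatin inherited from a donor nucleus is widely regarded as an obstacle to the activation of embryonic genes after nuclear transfer.

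The gene annotation divided the region into 3 zones. The zinc finger block (chr4:145000001-147848366, 2.85 Mb, of which 432 kb is assembly gap) ends with Zfp933 and holds 25 protein-coding genes, 20 of them zinc finger genes. These lie between Zfp990 and Zfp933 (chr4:145510759-147848366), called the zinc finger gene span. The gene-dense zone (chr4:147848367-152563183, 4.71 Mb) holds 78 protein-coding genes, from there to Nphp4. The Ajap1 zone (1.74 Mb, from base 152563184 to the end of the region) begins with a 1.39-Mb interval between Nphp4 and A430005L14Rik (chr4:152563184-153957236) in which Ajap1 is the only protein-coding gene. That interval is called gene-poor here and was set apart after the peaks had been seen. The zones differ in sequence. The zinc finger gene span had 40.2% GC and 39.4% soft-masked repeats, the gene-poor interval 49.2% and 22.9%, and the autosomes outside the region 41.9% and 33.5%. Words of 96 bases were unique in the genome at 45.5% of positions in the zinc finger gene span and at 98.7% in the gene-poor interval, so sequence of that length from much of the zinc finger gene span fits several places.

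Most promoters of the zinc finger genes resemble each other closely. The 300-base RefSeq promoters (GRCm38.p6, the mm10 assembly, mostly upstream of the start) of 3 members are printed here because their H3K9me3 coverage is described below, followed by that of Zfp933, which is different. Capitals mark the longest run shared by all the promoters that are at least 70% identical to that of Zfp600.
Zfp600, chr4:146156577-146156876, + strand: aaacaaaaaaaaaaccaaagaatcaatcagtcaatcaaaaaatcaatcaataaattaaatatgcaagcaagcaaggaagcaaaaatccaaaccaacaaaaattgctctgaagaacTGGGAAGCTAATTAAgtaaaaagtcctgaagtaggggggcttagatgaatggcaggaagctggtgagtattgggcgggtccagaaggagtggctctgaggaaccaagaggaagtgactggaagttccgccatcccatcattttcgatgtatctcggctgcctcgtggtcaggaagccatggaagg
Zfp981, chr4:146514670-146514969, + strand: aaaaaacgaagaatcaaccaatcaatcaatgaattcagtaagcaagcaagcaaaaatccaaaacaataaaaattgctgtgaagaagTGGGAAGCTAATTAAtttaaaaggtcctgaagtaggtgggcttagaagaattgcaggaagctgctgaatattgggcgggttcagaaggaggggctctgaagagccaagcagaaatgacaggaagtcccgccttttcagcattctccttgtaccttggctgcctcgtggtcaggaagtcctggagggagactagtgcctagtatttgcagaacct
Zfp985, chr4:147553027-147553326, + strand: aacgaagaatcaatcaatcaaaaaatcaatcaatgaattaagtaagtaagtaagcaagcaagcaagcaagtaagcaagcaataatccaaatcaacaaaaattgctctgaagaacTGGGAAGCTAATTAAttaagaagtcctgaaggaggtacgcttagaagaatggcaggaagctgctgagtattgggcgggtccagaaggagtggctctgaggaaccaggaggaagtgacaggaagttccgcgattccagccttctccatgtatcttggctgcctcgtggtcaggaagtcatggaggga
Zfp933, chr4:147848369-147848668, - strand: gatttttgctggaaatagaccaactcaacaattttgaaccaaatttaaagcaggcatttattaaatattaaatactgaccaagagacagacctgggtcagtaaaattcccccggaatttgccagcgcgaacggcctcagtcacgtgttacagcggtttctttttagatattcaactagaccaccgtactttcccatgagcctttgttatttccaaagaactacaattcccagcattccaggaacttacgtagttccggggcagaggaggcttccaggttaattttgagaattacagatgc

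Of the 20 zinc finger genes, 13 matched a RefSeq promoter at their own locus, and 11 of these were at least 70% identical to the promoter of Zfp600 (Rex2 at 99.3%, Zfp985 at 83.9%, Zfp981 at 72.4%). The shared run of 15 bases, TGGGAAGCTAATTAA, was searched on both strands of all 32851 RefSeq promoters. It was found in 12 (0.0365%), all of them in the zinc finger block. The 11 from which the run was derived hold it by construction. The twelfth is that of Zfp984, which is 67.3% identical. The Zfp933 promoter is 51.9% identical to that of Zfp600 and does not hold the run. For Zfp981 the RefSeq start lies 12893 bases into the GENCODE gene, so its printed promoter is that of a shorter transcript.

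The zinc fingers are repeats as well. In 18 of the 20 genes the last coding exon holds at least 3 C2H2 motifs (from 3 to 20, median 12.5), and neighbouring fingers are joined by a linker that usually reads TGEKP in protein. The others, Zfp986 and Zfp993, had 0 motifs in the coding sequence used and were included by symbol. The stretch from the start of a linker to the end of the next is printed for 4 genes, with both linkers in capitals, because the coverage of their exons is compared below.
Zfp600, chr4:146195583-146195681, + strand: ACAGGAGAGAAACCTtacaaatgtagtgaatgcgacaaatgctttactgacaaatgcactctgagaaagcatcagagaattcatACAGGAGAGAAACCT
Zfp981, chr4:146537403-146537501, + strand: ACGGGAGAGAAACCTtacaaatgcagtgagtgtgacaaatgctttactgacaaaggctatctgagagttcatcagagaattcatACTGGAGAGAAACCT
Zfp985, chr4:147583541-147583639, + strand: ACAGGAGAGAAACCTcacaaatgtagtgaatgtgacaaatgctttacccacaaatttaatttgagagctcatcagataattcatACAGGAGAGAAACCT
Zfp933, chr4:147826580-147826678, - strand: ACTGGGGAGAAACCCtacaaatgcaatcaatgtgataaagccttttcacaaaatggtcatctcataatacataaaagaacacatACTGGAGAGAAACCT

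In the 18 exons, 89 pairs of linkers were exactly 84 bases apart, the length of 1 finger with its linker. A median of 84.8% of the 24-base words of an exon occurred in the last coding exon of another of these genes, from 0% in Zfp933 to 95.1% in Rex2. The exons had a median of 35.4% GC, below the block around them.

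Across the region, the share of assembled bases in peaks was 37.8% in CC (Wilson 95% interval over kb 36.8 to 38.8%), 32.9% and 34.3% at 6 and 14 hpa, 23.9% in 2-cell, 23.3% in 4-cell and 20.7% in 8-cell embryos, 20.5% in morula, 14.5% and 14.8% in ICM and TE, and 10.4% in PN5 zygotes. The intervals were at most 1.0 point to either side, and these intervals cover counting error only. The autosomes outside the region were covered to 8.76% in CC, between 5.05% and 8.53% in the 8 SCNT lists and to 5.37% in PN5. The region thus stood at 4.31 times the outside level in CC, 5.80 times at 6 hpa, 2.27 times in ICM and 1.94 times in PN5. With 0.335% of the assembled genome it held 1.31% of the covered bases of the CC list and 1.86% of those of the 6 hpa list. The 14 hpa list exceeded the PN5 list by 23.9 percentage points.

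Zones of opposite character make up these values. The gene-poor interval was covered to 95% in CC, 90.3% and 89.3% at 6 and 14 hpa, 80.8% in 2-cell, 74.0% in 4-cell and 62.2% in 8-cell embryos, 54.6% in morula, 22.1% and 26.9% in ICM and TE, and 15.5% in PN5 zygotes. Each SCNT list up to ICM was thus lower than the one before it, with the widest step, 32.4 points, between morula and ICM. With every list trimmed to the length of the shortest, the 8-cell, morula and ICM values were 55.8%, 30.3% and 13.2%, and the widest step then lay between 8-cell and morula. The zinc finger gene span was covered to 88.7% in CC, 57.2% and 71.2% at 6 and 14 hpa, 30.9% in 2-cell, 28.5% in 4-cell and 27.3% in 8-cell embryos, 40% in morula, 40.1% and 37.3% in ICM and TE, and 15.8% in PN5 zygotes. Here the 6 hpa list was already 31.5 points below CC, the 14 hpa list was 14.0 points above that of 6 hpa, the lowest SCNT values were those of the cleavage stages, and morula and blastocyst lists were higher again. The order of the zones therefore changed with the stage: in 2-cell embryos the gene-poor interval was the more densely covered, and in ICM the zinc finger gene span was. In unique sequence the ICM difference was small.

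**Figure D1:**
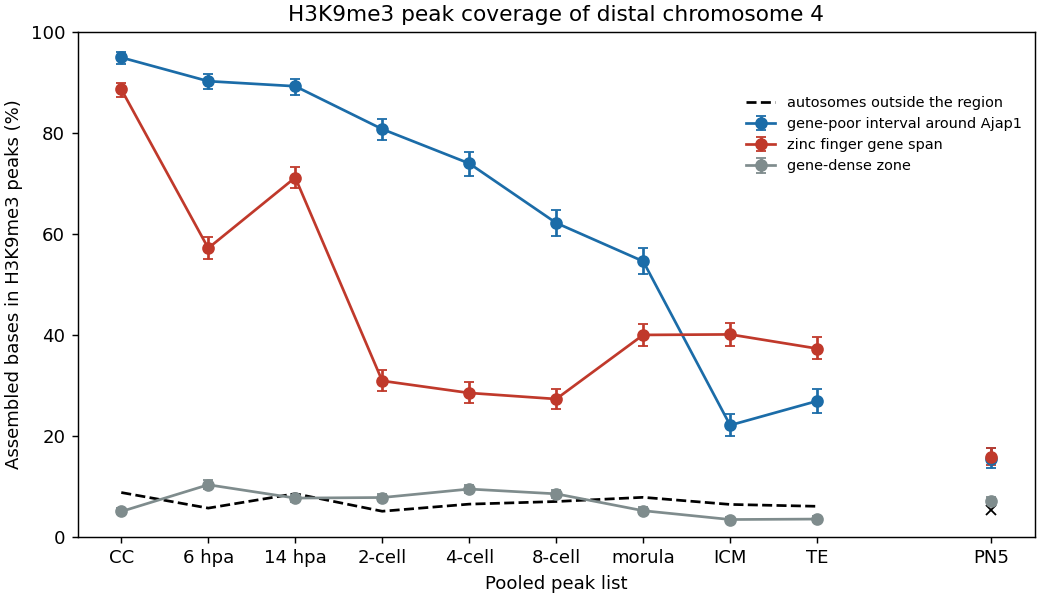
Share of assembled bases inside H3K9me3 peaks (y axis, percent) in the 10 pooled lists (x axis, SCNT series from the CC donor to ICM and TE, then PN5 apart), for the gene-poor interval around Ajap1, the zinc finger gene span, the gene-dense zone and the autosomes outside the region; bars are Wilson 95% intervals over kb and cover counting error only. The gene-poor interval steps down from 95% in CC to 22.1% in ICM, while the zinc finger gene span is lowest at 27.3% in the 8-cell list and stands at 40.1% in ICM.

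The higher level of the zinc finger gene span in ICM than in 2-cell embryos was smaller in unique sequence. Over the windows of the zinc finger gene span in which at least 90% of the 96-base words are unique (371 of them), coverage was 77.9% in CC, 43.2% and 60.2% at 6 and 14 hpa, 23.1% in 2-cell embryos (19.1 to 27.7%) and 25.4% in ICM (21.1 to 29.9%), so that the lower 6 hpa and 2-cell values remained and the difference between ICM and 2-cell narrowed from 9.21 to 2.27 points. With every list trimmed to the length of the shortest, the 14 hpa list of the zinc finger gene span exceeded the 6 hpa list by 3.89 points instead of 14.0. In the gene-poor interval, where nearly all windows are unique, the same restriction gave 95.2% in CC, 81.1% in 2-cell embryos and 21.3% in ICM (19.2 to 23.5%). The ICM intervals of the 2 zones thus overlapped in unique windows, and the TE values were 26.6% in the zinc finger gene span and 26.0% in the gene-poor interval.

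The borders of the gene-poor interval were set by genes and not by peaks. CC coverage was 8.20%, 44.3% and 93.2% in successive 100-kb segments from base 152400001, which run through Nphp4 into the interval. Nphp4 (nephrocystin 4, a ciliary protein) was itself covered to 27.8% in CC. The first CC peak of the gene-poor interval began 2601 bp after the end of Nphp4, and 18.6 kb separated its last CC peak from A430005L14Rik. Of the 100-kb segments there with at least 80% coverage in CC (13 of them), coverage in 2-cell embryos was between 69.5% and 91.0%, and in ICM between 16.6% and 27.7%. The 16 such segments of the zinc finger block ranged from 11.5% to 49.0% in 2-cell embryos and from 21.1% to 62.2% in ICM, so the 2 groups of segments did not overlap in 2-cell embryos. Elsewhere on the autosomes 359 segments had at least 80% coverage in CC, with medians of 28.4% in 2-cell embryos and 20.5% in ICM, and 13 of the 359 (3.62%) reached 70% in 2-cell embryos. The 100 kb just before and just inside the proximal border of the region were covered to 0.697% and 0.489% in CC. At the distal border the last 100 kb inside were covered to 0.231% in CC and 5.57% in 4-cell embryos, and the 100 kb beyond to 2.98% and 23.8%.

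**Figure D2:**
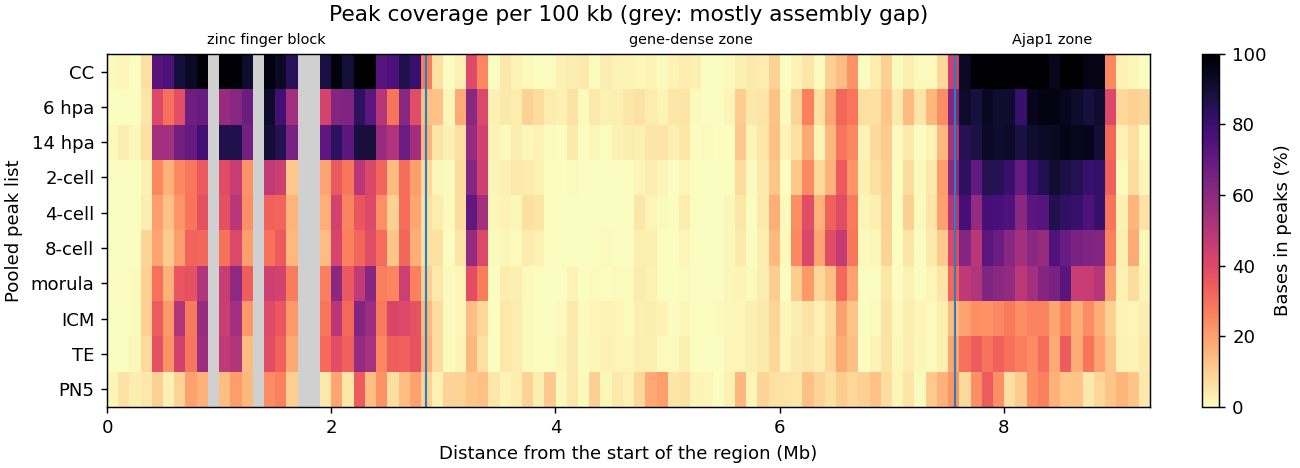
Share of bases inside peaks (colour, percent) for each 100 kb (x axis, Mb from the start of the region) in each pooled list (y axis); blue lines part the 3 zones, and grey columns are mostly assembly gap. The zinc finger block is dark in CC and mottled afterwards, the block around Ajap1 stays dark to the 8-cell list, and narrower bands appear near 3.3 Mb (Disp3) and 6.2 to 6.7 Mb (Camta1) of the gene-dense zone.

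Counted in windows (a window is called marked when peaks cover at least 50% of its assembled bases), 3314 windows of the region were marked in CC. Genome-wide, 8.99% of the scored windows were marked in CC, 5.08% and 8.40% at 6 and 14 hpa, 4.66% in 2-cell, 5.77% in 4-cell and 5.91% in 8-cell embryos, 6.95% in morula, 5.92% and 5.41% in ICM and TE, and 4.52% in PN5 zygotes. Of the 3314, 1591 (48.0%) were also marked at 6 hpa, 14 hpa and in 2-cell embryos. The same share was 20.0% of all CC windows and 20.7% on the autosomes outside the region. It was 76.5% (1014 of 1325, Wilson 95% interval 74.2 to 78.7%) in the gene-poor interval and 27.6% (465 of 1685, 25.5 to 29.8%) in the zinc finger gene span. The region supplied 1211 of the 24593 windows (4.92%) that were marked in the first 4 lists, from CC to 2-cell, and not in PN5, and the gene-poor interval supplied 844 of these.

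Near Ajap1, 654 of 1325 CC windows (49.4%) were marked at 6 hpa, at 14 hpa and in 2-cell embryos and in neither ICM nor TE, against 6.65% in the zinc finger gene span, 4.77% on the autosomes outside and 4.71% of all CC windows. The converse course, marked in CC, unmarked in the 3 lists from 2-cell to 8-cell and marked in ICM, was taken by 225 of 1685 CC windows (13.4%) of the zinc finger gene span, by 13 of 1325 (0.981%) of the gene-poor interval and by 9.61% of all CC windows. Counted apart, 23.6% of the CC windows of the zinc finger gene span were unmarked at 6 hpa and marked at 14 hpa, against 5.81% of the gene-poor interval and 25.9% of the autosomes outside. These windows can include some of those marked again in ICM.

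GC content moved with these shares. The median GC content of CC windows was 49.5% in the gene-poor interval, 40.3% in the zinc finger block and 42.6% outside the region. Within windows of 50% GC or more, 94.5% of the CC windows of the gene-poor interval (601 windows) were kept at 6 hpa, 14 hpa and in 2-cell embryos, against 74.6% of 15690 windows outside. Between 45% and 50% GC the shares were 73.6% of 554 and 42.0% of 47784. In ICM the order was the other way: of the windows of 50% GC or more, 20.0% were marked in the gene-poor interval and 65.6% outside. The zinc finger block also differed from the rest at lower GC content. Of its CC windows below 35% GC (244 windows), 59.8% were marked at 14 hpa and 44.3% in ICM, against 13.8% and 7.40% of 8216 such windows outside. In 2-cell embryos these shares were 9.02% and 1.33%, and between 45% and 50% GC they were 72.2% and 58.0%. At 6 hpa the widest difference was between 40% and 45% GC, where 74.0% of the CC windows of the block and 29% of those outside were marked.

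**Figure D3:**
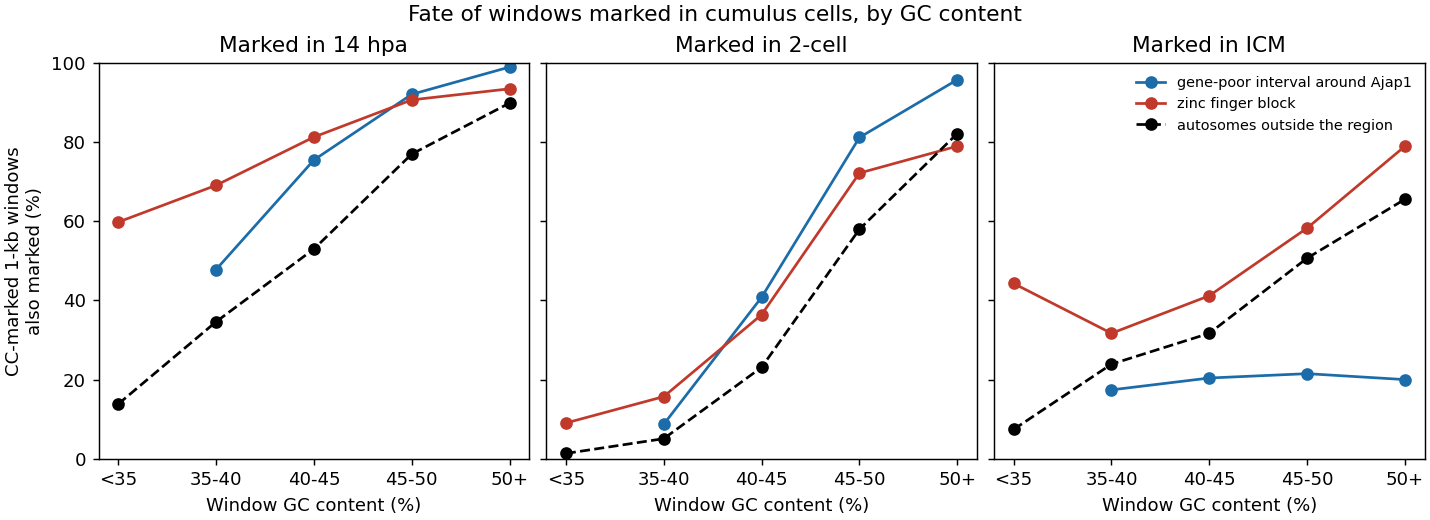
Share of the 1-kb windows marked in CC that were also marked in the 14 hpa, 2-cell and ICM lists (y axis, percent; 1 panel per list), by the GC content of the window (x axis, percent), for the gene-poor interval around Ajap1, the zinc finger block and the autosomes outside the region; classes of under 20 windows are left out. In ICM the line of the gene-poor interval is flat near 20%, while that of the autosomes outside climbs from 7.40% to 65.6%.

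All 20 zinc finger genes had at least 50% of the gene body in CC peaks, from 57.6% (Zfp985) to 100% (Zfp600, Zfp981, Zfp988 and Zfp978), where 4.76% of all 21938 protein-coding genes did. The count was 9 of 20 at 6 hpa (background 3.83%), 14 at 14 hpa (3.40%), 1 in 2-cell embryos (1.98%), 1 in 4-cell embryos (2.26%), 0 in 8-cell embryos (2.23%), 5 in morula (1.68%), 7 in ICM (1.08%), 5 in TE (0.843%), and 0 in the PN5 zygotes (1.95%). These counts belong to the measure by which the region was selected. Coverage was lower in 2-cell embryos than in CC in 20 of 20 genes (median difference −60.1 points), higher at 14 hpa than at 6 hpa in 18 of 20 (19.9 points), higher in ICM than in 2-cell embryos in 19 of 20 (17.5 points) and higher at 14 hpa than in PN5 in 20 of 20 (58.4 points). Neighbouring copies share sequence and are not independent, and no such counts over all genes are given here. Coverage of the autosomes outside the region differed in the same directions. It was 8.76% in CC, 5.67% and 8.53% at 6 and 14 hpa, 5.05% in 2-cell embryos, 6.40% in ICM and 5.37% in PN5. Over the zinc finger gene span, the 14 hpa excess over 6 hpa fell from 14.0 to 3.89 points with lists of equal length. The ICM excess over 2-cell embryos there fell from 9.21 to 2.27 points in unique windows. The 643 other autosomal zinc finger genes had a median body coverage of 1.45% in CC, and 59 of them reached 50%.

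Zfp981 had the highest mean body coverage of the block. It was covered to 100% in CC, 93.8% and 93.3% at 6 and 14 hpa, 61.5% in 2-cell, 38.4% in 4-cell and 39.7% in 8-cell embryos, 49.8% in morula, 52.0% and 54.1% in ICM and TE, and 32.6% in PN5 zygotes. It was the only one of the 20 above 50% in 2-cell embryos.
Zfp600 was covered to 100% in CC, 60.1% and 86.1% at 6 and 14 hpa, 45.7% in 2-cell, 52.5% in 4-cell and 46.7% in 8-cell embryos, 65.5% in morula, 58.3% and 60.3% in ICM and TE, and 26.4% in PN5 zygotes. Its lowest SCNT value was thus that of the 2-cell list.
Zfp992 was covered to 92.9% in CC, 89.5% and 86.4% at 6 and 14 hpa and 41.0% in 2-cell embryos, and between 43.0% and 62.1% in the later SCNT lists, with 13.7% in PN5. Like Zfp981 it was nearly as covered at 6 hpa as in CC.
Zfp986 was covered to 99.8% in CC, 53.5% and 84.9% at 6 and 14 hpa, 33.4% in 2-cell, 49.5% in 4-cell and 46.1% in 8-cell embryos, 57.3% in morula, 65.6% and 60.5% in ICM and TE, and 26.2% in PN5 zygotes. Its ICM value was the highest of the block.

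The 4 genes with the lowest mean were Zfp985, Zfp989, Zfp990 and Zfp984. Zfp985 was covered to 57.6% in CC, 20.3% and 24.3% at 6 and 14 hpa, 2.70% in 2-cell, 5.12% in 4-cell and 1.69% in 8-cell embryos, 9.56% in morula, 25% and 18% in ICM and TE, and 0% in PN5 zygotes. In 2-cell embryos Zfp989 was covered to 4.78%, Zfp990 to 10.2% and Zfp984 to 11.9%, after 62.0%, 67.2% and 76.2% in CC. Low and high members lay next to each other, as Zfp993 (10.5% in 2-cell embryos) followed Zfp981. Zfp933, the last gene of the block, was covered to 59.2% in CC, 33.8% and 39.3% at 6 and 14 hpa, between 20.4% and 28.7% in the 4 lists from 2-cell to morula, 39.0% and 47.8% in ICM and TE, and 16.5% in PN5 zygotes.

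**Figure D4:**
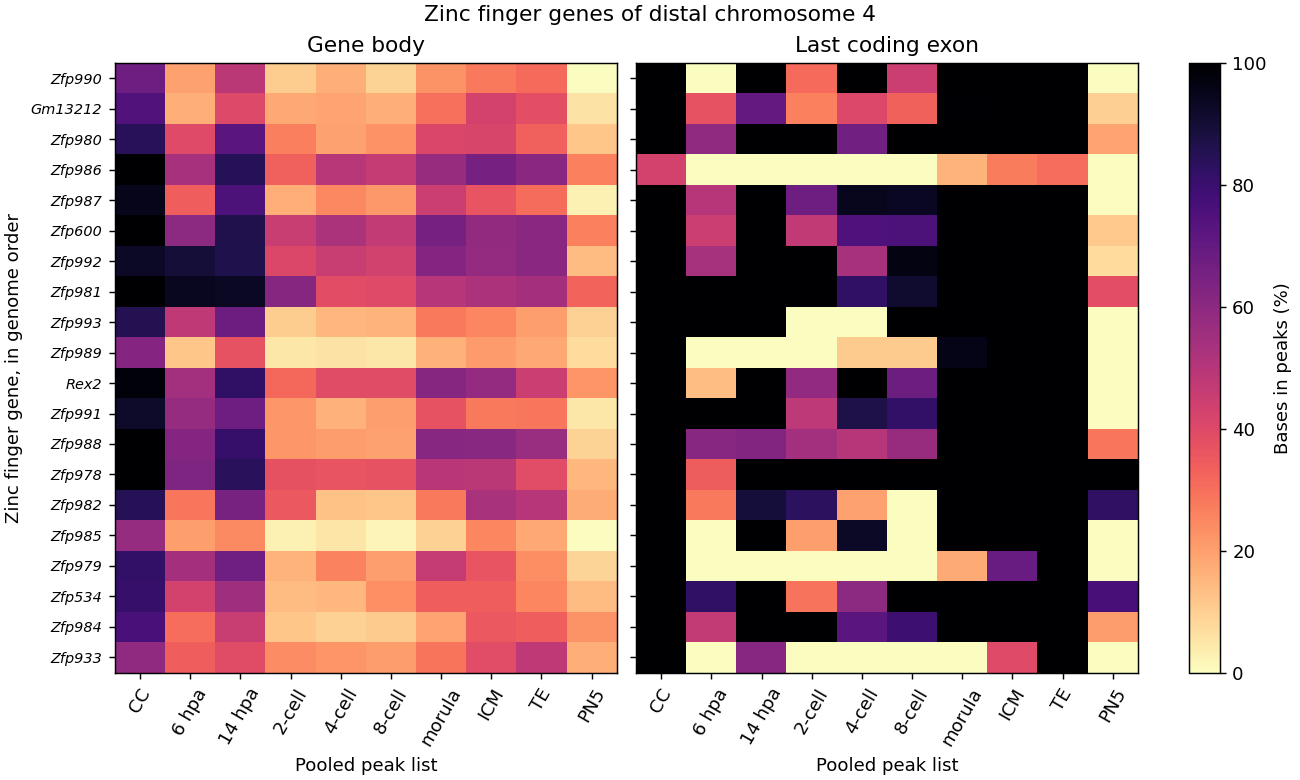
Share of bases inside peaks (colour, percent) of the gene body (left) and of the last coding exon (right) for the 20 zinc finger genes in genome order (y axis) in the 10 pooled lists (x axis). Nearly all last coding exons are fully covered in CC, ICM and TE, are broken up at 6 hpa and from the 2-cell to the 8-cell list, and are mostly bare in PN5.

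The last coding exon, which encodes zinc fingers in 18 of the 20 genes, took a course of its own. The median over the 20 genes of the share of this exon in peaks was 100% in CC, 41.1% and 100% at 6 and 14 hpa, 47.6% in 2-cell, 63.3% in 4-cell and 71.8% in 8-cell embryos, 100% in morula, 100% and 100% in ICM and TE, and 3.62% in PN5 zygotes. The rest of the gene had medians of 84.7%, 43.8%, 68.3%, 20.3%, 18.2%, 18.1%, 36.5%, 38.8%, 33.1% and 10.7% in the same order. The median difference between exon and rest was 15.3 points in CC, −6.95 points at 6 hpa, 24.1 points at 14 hpa, 24.7 points in 2-cell embryos, 38.2 and 39.4 points in 4-cell and 8-cell embryos, 60.1 points in morula, 56.7 and 66.9 points in ICM and TE, and −2.53 points in PN5. At 6 hpa the exon was the less covered part in 12 of 20 genes, and in TE it was the more covered part in 19 of 20. No such comparison of exon and rest over all genes is given here, so whether it is particular to these genes is not known.

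At least 50% of the last coding exon was covered in 19 of 20 genes in CC, 7 at 6 hpa, 17 at 14 hpa, 9 in 2-cell embryos, 18 in ICM, 19 in TE and 3 in PN5. Among all protein-coding genes these shares were 7.09%, 10.5%, 7.46%, 5.59%, 3.94%, 3.78% and 8.71% in the same order. The exon of Zfp981 was fully covered in the first 4 lists, from CC to 2-cell. That of Zfp600 was covered to 100% in CC, 45.1% and 100% at 6 and 14 hpa, 47.1% in 2-cell embryos and 100% in morula, ICM and TE. The exon of Zfp985 was covered to 100% in CC, 0% and 100% at 6 and 14 hpa, 20.3% in 2-cell embryos, 92.7% in 4-cell embryos, 0% in 8-cell embryos and 100% in morula, ICM and TE. The exon of Zfp933, which shares none of its 24-base words with the other 17, was covered to 100% in CC, 61.2% at 14 hpa, 39.6% in ICM and 100% in TE, and to 0% in the other 6 lists. Only 4 of the exons have 200 bases or more in unique windows, so reads from the others may fit more than 1 gene.

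DNA that reads TGEKP in any frame on either strand was sought in every window, which found it in 0.135% of the windows of the autosomes outside the region, 2.15% of the windows of the zinc finger block (52 windows), 0.148% of those of the gene-dense zone and 0.115% of those of the Ajap1 zone. The 52 windows of the block were marked in 98.1% of cases in CC, 34.6% and 75% at 6 and 14 hpa, 48.1% in 2-cell embryos, 86.5% in morula, 96.2% in ICM and 96.2% in TE, and in 17.3% in PN5. Windows of the block with no such linker were marked in 72.9% in CC, 45.3% and 57.6% at 6 and 14 hpa, 23.4% in 2-cell embryos, 31% in morula, 30.5% in ICM and 28.9% in TE. These include sparsely covered sequence before the first zinc finger gene. There, 100-kb segments up to base 145400000 were covered to between 0.319% and 6.34% in CC and at most 9.95% in ICM. How much this adds to the contrast was not tested. Of the 227 linkers of the block, 141 lie in the 18 exons described above. Of the 3217 linker windows outside the region, 28.2% were marked in CC, 7.80% and 14.2% at 6 and 14 hpa, 6.50% in 2-cell embryos and 23.7% in ICM. All 7 linker windows of the gene-dense zone were unmarked in the 10 lists.

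The start sites of the zinc finger genes, taken as 1 kb to either side of the GENCODE start, were covered to at least 50% in 18 of 20 genes in CC (5.26% of all protein-coding genes), 13 at 6 hpa (8.57%) and 3 in 2-cell embryos (3.10%), and in none of the 20 in PN5 (3.59%). The start of Zfp933, whose promoter is unlike the others, was covered to 0% in all 10 lists, although its body was covered to 59.2% in CC. This start lies at the border of the block and its printed promoter in the gene-dense zone, so position and sequence cannot be told apart. The promoter of Zfp984, 67.3% identical to that of Zfp600, was covered to 100% in CC. The start of Zfp600 was covered to 100% in CC, 95% and 90.6% at 6 and 14 hpa and 39.5% in 2-cell embryos. Over the printed 300 bases, the promoters of Zfp600, Zfp981 and Zfp985 were covered to 100% in CC and at 6 hpa. In 2-cell embryos those of Zfp600 and Zfp981 were at 100% and that of Zfp985 at 0%. The GENCODE start of Zfp981 lies 12893 bases from the RefSeq start, and the 2 kb around it were covered to 0% in 2-cell embryos. Of the 11 promoters like that of Zfp600, 10 were covered to at least 50% in CC and at 6 hpa, 8 at 14 hpa, 3 in 2-cell embryos and 5 in ICM, the exception in CC being Gm13212 (2.00%). Of all 32851 RefSeq promoters, 6.16%, 12.2%, 6.56%, 4.88% and 3.13% were covered to that extent in these 5 lists.

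Other zinc finger clusters were set beside this one. By the same linkage of 500 kb, 13 autosomal clusters hold at least 10 zinc finger genes. The zinc finger gene span had the highest coverage of the 13 in CC, 88.7%, followed by a cluster of 11 genes on chromosome 7 (chr7:42473386-43618285) with 54.8%, and the lowest was 3.49%. It was also the most covered of the 13 at 6 and 14 hpa, in 2-cell embryos and in ICM. The region was chosen for high coverage in several of the lists, so these ranks are a description only. Its 2-cell coverage was 0.348 of its CC coverage. The same ratio was 0.239 in the chromosome 7 cluster and 0.328 in the cluster of 26 genes on chromosome 17 (chr17:21008903-23611019), and in this ratio the chromosome 4 cluster stood eighth of the 13. The cluster of 38 genes on chromosome 2 (chr2:174643534-178078476) was covered to 12.9% in CC, 6.17% in 2-cell embryos and 22.8% in ICM. ICM coverage was above 2-cell coverage in most of the 13 clusters, so this order was not particular to the chromosome 4 cluster. The exceptions were chr7:6131491-7209998 (14.2% in ICM, 17.4% in 2-cell) and chr7:24081924-25227507 (8.40% and 10.6%). The ratio of ICM to 2-cell coverage was highest in chr13:67038596-67827002 (18.1% and 4.38%). Coverage at 14 hpa was likewise above that at 6 hpa in most of the 13.

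Ajap1 (chr4:153373221-153482811, - strand), which encodes a transmembrane protein of adherens junctions, was covered along its body to 96.5% in CC, 98.2% and 94.0% at 6 and 14 hpa, 92.6% in 2-cell, 85.3% in 4-cell and 70% in 8-cell embryos, 63.0% in morula, 20.8% and 21.3% in ICM and TE, and 18.1% in PN5 zygotes. From 6 hpa to ICM its body was lower in each list than in the one before, like the interval around it. Its start took another course. The 2 kb around the start (70.7% GC, 212 CpG) were covered to 0% in CC, 100% and 45.6% at 6 and 14 hpa, 59.2% in 2-cell embryos, 10.1% in 4-cell embryos, 0% in 8-cell embryos, in morula, ICM and TE, and 14.9% in PN5. In CC the start lay in an uncovered stretch of 5.70 kb between covered sequence on both sides. At 6 hpa it lay inside a peak of 16.3 kb, and the uncovered stretch was 1.64 kb at 14 hpa, 0.815 kb at 2-cell, 2.54 kb at 4-cell, 5.43 kb at 8-cell and 7.60 kb in morula. The 300 bases of the RefSeq promoter are printed with CpG in capitals, since 51 CpG lie in them.
Ajap1, chr4:153482781-153483080, - strand: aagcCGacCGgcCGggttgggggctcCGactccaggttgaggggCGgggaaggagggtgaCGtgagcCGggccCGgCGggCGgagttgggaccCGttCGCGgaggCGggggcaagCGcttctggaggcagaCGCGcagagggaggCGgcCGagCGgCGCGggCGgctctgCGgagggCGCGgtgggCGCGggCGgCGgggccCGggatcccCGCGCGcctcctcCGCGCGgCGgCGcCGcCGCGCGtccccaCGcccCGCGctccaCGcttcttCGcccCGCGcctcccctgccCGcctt

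**Figure D5:**
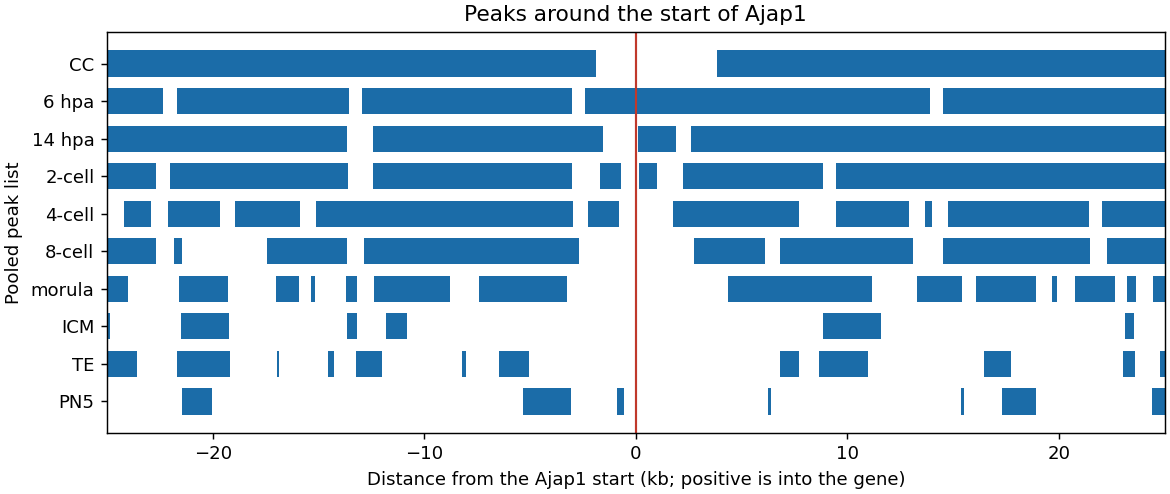
Peaks of each pooled list (y axis) within 25 kb of the start of Ajap1 (x axis, kb, positive into the gene; red line, start); bars are merged peaks. The start is free of peaks for 5.70 kb in CC, lies inside a peak at 6 hpa, and is free again from 14 hpa on, with peaks thinning to either side in ICM, TE and PN5.

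The longest peak of the gene-poor interval was 275 kb in CC (chr4:153204388-153478982), 81.5 kb at 6 hpa, 58.3 kb at 14 hpa, 30.4 kb in 2-cell embryos, 31.2 kb in 4-cell embryos, 17.9 kb in 8-cell embryos, 14.0 kb in morula, 9.94 kb in ICM and 8.13 kb in TE, with 11.2 kb in PN5. The median width took another course, with 3636 bp in CC, 6489 bp and 6073 bp at 6 and 14 hpa, 2839 bp in 2-cell embryos and 783 bp in ICM. Peaks of 10 kb or more numbered 12 in CC, 43 at 6 hpa, 49 at 14 hpa, 33 in 2-cell embryos, 9 in 8-cell embryos and 0 in ICM and TE. The number of peaks there was 29 in CC and 389 in 8-cell embryos. The median fold enrichment over input was 3.15 in CC, 3.30 at 6 hpa, 3.08 in 2-cell embryos and 2.83 in ICM, and over the whole lists it was between 2.70 and 3.09.
In the zinc finger gene span the longest peak was 199 kb in CC, 37.8 kb at 6 hpa, 35.2 kb at 14 hpa, 11.4 kb in 2-cell embryos and 26.2 kb in ICM. Peaks of 10 kb or more numbered 41 in CC, 1 in 2-cell embryos, 0 in 4-cell and 8-cell embryos, 17 in ICM and 10 in TE.

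Stretches that lay inside peaks without a break in each of the 4 lists from CC to 2-cell summed to 1010 kb in the Ajap1 zone, 508 kb in the zinc finger block and 104 kb in the gene-dense zone, and the longest of each zone was 30.2 kb, 9.28 kb and 8.59 kb. The longest of all lies in Ajap1 (chr4:153418985-153449142). It was covered to 94.2% at 4-cell, 73.3% at 8-cell and 74.1% in morula, 25% and 12% in ICM and TE, and 18% in PN5 zygotes. Of the 5 longest stretches that overlap no annotated gene, all in the gene-poor interval, 4 had between 30.1% and 53.7% in ICM. The other, chr4:152933160-152948746 (15.6 kb), was covered to 80.3% in ICM, 83.1% in TE and 72.8% in PN5 zygotes, and 34.6% of it is soft-masked. The central 200 bases of both are printed for the contrast, with CpG in capitals.
Longest stretch, chr4:153433964-153434163, + strand: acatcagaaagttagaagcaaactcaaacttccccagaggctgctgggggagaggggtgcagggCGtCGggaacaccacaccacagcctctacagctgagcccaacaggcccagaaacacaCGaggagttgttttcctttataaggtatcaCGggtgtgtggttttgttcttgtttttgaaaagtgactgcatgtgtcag
Stretch kept in ICM, TE and PN5, chr4:152940853-152941052, + strand: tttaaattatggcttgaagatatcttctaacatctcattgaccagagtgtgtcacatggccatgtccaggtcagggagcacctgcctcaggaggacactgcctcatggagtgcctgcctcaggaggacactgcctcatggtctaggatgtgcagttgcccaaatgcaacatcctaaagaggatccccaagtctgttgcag

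The gene-dense zone was covered to 5.00% in CC, 10.3% and 7.66% at 6 and 14 hpa, 7.77% in 2-cell, 9.45% in 4-cell and 8.50% in 8-cell embryos, 5.16% in morula, 3.41% and 3.50% in ICM and TE, and 7.18% in PN5 zygotes. Of its 78 protein-coding genes, 1 had at least 50% of the body in peaks in CC (4.76% of all protein-coding genes did), Disp3, which encodes a membrane protein of the Dispatched family. Disp3 was covered to 58.2% in CC, 72.6% and 70.6% at 6 and 14 hpa, 70.6% in 2-cell, 72.2% in 4-cell and 62.3% in 8-cell embryos, 38.3% in morula, 17.0% and 16.7% in ICM and TE, and 20.2% in PN5 zygotes.
Camta1 (chr4:150917322-151861876), which encodes a calmodulin-binding transcription activator, was covered to 6.75% in CC, 15% and 12.2% at 6 and 14 hpa, 14.0% in 2-cell, 21.1% in 4-cell and 22.7% in 8-cell embryos, 12.1% in morula, 6.34% and 6.46% in ICM and TE, and 8.22% in PN5 zygotes. Its 8-cell interval (20.1 to 25.4%) lay above that of CC (5.34 to 8.56%). Kcnab2 (a potassium channel subunit) was likewise more covered in the early embryo than in CC or ICM, with 5.49% in CC, 20.4% at 6 hpa, 19.9% in 4-cell embryos and 2.75% in ICM. Nphp4, which borders the gene-poor interval, was covered to 27.8% in CC, 45.9% at 6 hpa, 43.3% in 2-cell embryos and 13.0% in ICM. Hes3, a basic helix-loop-helix repressor gene, was covered to 37.1% at 6 hpa, 0% in 8-cell embryos and 27.6% in ICM.

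Of a list of 20 genes of the gene-dense zone, Nphp4, Hes3 and Camta1 among them, 1 reached 50% of the body in any list, Hes2 with 72.7% at 6 hpa, and the list's median was 0% in CC and 2.17% at 6 hpa. The median over all other autosomal coding genes was 0% in CC and 1.12% at 6 hpa. In the 6 hpa list 4 starts of this list were covered to at least 50%, those of Casz1 (61.5%), Hes2 (64.2%), Chd5 (67.8%) and Nphp4 (51.4%), where 8.57% of all coding gene starts were. In each of the other 9 lists none was, and among all coding genes these shares were 5.26% in CC, 4.74% at 14 hpa, 3.10% in 2-cell, 2.78% in 4-cell and 2.45% in 8-cell embryos, 1.87% in morula, 1.34% and 1.17% in ICM and TE, and 3.59% in PN5 zygotes. Over the 78 genes of the zone, 7 starts reached 50% at 6 hpa, a share near the 8.57% of all coding genes. Nppa, Nppb, Mfn2, Mtor, Kif1b, Pik3cd, Eno1, Rere, Errfi1, Park7, Per3, Espn and Acot7 were covered along the body to at most 21.5% in any list, the highest being Espn at 6 hpa. The highest in PN5 was Nphp4 with 23.0%. Among genes named after their values were seen, Spsb1 in this zone and Dffb in the Ajap1 zone were covered to 32.7% and 54.6% in PN5, and to 6.66% and 1.55% at 14 hpa.

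ICM and TE shared their peaks to a different degree in the zones. The Jaccard index, the share of bases common to 2 lists among those in at least 1 of them, was 0.581 in the region, 0.680 in the zinc finger gene span, 0.566 in the gene-dense zone, 0.391 in the gene-poor interval and 0.502 on the autosomes outside the region. In the gene-poor interval 62.3% of the ICM bases lay in TE peaks and 51.2% of the TE bases in ICM peaks. In the zinc finger gene span these shares were 78.2% and 83.9%. Of the ICM bases, 97.9% in the zinc finger gene span and 98.0% in the gene-poor interval were covered in CC, against 50.8% outside the region. Of the PN5 bases, 98.4% and 97.2% lay in CC peaks, against 31.4% outside. The ICM and PN5 shares inside are largely set by the CC coverage of the zinc finger gene span (88.7%) and the gene-poor interval (95%).

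A list was made of genes for silencing by KRAB zinc finger proteins and for adding or removing H3K9 methylation. None of them lies in the region, and they were covered to a low level, as most genes were. Of 17 listed genes (Trim28, Setdb1, Atf7ip, Cbx1, Cbx3, Cbx5, Suv39h1, Suv39h2, Ehmt1, Ehmt2, Morc2a, Mphosph8, Dnmt1, Uhrf1, Kdm4a, Kdm4b and Kdm4d), 0 reached 50% of the body in any list, where between 0.843% and 4.76% of all protein-coding genes did. Suv39h1, an X-linked H3K9 methyltransferase gene, was covered along the body to 44.8% in CC, 31.6% and 28.6% at 6 and 14 hpa and 21.1% in 2-cell embryos, and to 0% in PN5. Its start was covered to 77.9%, 40.3%, 54.2% and 67.3% in the same 4 lists and to 0% in the other 6. The starts of Atf7ip and Morc2a, which encode partners of SETDB1 and of the HUSH silencing complex, were covered to 76.0% and 87.8% in ICM and to 0% and 11.5% in CC. The body of Kdm4a, an H3K9 demethylase gene, was covered to 22.7% in PN5 and to 5.69% at 14 hpa.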

How the data were processed

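H3K9me3 ChIP-seq reads had been trimmed with Cutadapt 1.16 (per the submitters' processing notes) and aligned with BWA mem to mm10. The authors then merged libraries with SAMtools, removed duplicates and drew equal read numbers with Picard, and called broad peaks over input with MACS2. The versions of the last 4 tools are not given in the sources used here. How reads with several placements were handled was not stated. The deposited files hold, for each of 10 groups, the peaks with a fold enrichment (a ratio over input) and a −log10 q-value computed by the authors' caller. The lists hold no read counts, so depth per library is not known from them and was not analysed here.

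Peaks of a list were merged, and covered shares were computed over assembled bases of GRCm38.p6 with GENCODE M21 genes (Python 3.11.15, NumPy 2.4.6, SciPy 1.17.1). Windows of 1 kb counted as marked from 50% coverage. Zinc finger genes were protein-coding genes with a Zfp symbol or at least 3 C2H2 motifs in the translated coding sequence, linked within 500 kb. Promoter identity was taken from edlib 1.3.9 alignments. The interval code was tested on simulated intervals. Motifs were counted in translated coding sequences and not, as planned, in RefSeq proteins, which were not used here. The zinc finger gene span, the gene-poor interval, the 100-kb segments, the linker windows, the other clusters and the shares of all promoters and start sites were chosen after the data were seen. The values of 1 interval and 1 listed gene are not reported here; counts and medians over the list include that gene. No test was run, as each group is 1 list. Wilson 95% intervals take 1 kb as the unit and cover counting error only.

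Named were Zfp600, Zfp981, Zfp986, Zfp933, the 4 zinc finger genes with the highest and the 4 with the lowest mean body coverage, Ajap1, the 5 highest genes of the gene-dense zone, the members of 2 gene lists and the 5 longest intergenic stretches, and other names were added after their values were seen. The region, its genes and the lists were chosen with earlier results of these data known. Alternatives were a −log10 q of at least 2, lists trimmed to equal length, unique windows only, and other thresholds for windows and genes.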

Additional observations from a re-analysis of the deposited data

How the results depend on the processing

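No paired analysis was possible because every group has a single list made from pooled libraries, which also left no replicate to leave out. Values that moved beyond their counting interval, or counts that moved by over 1.5 times, are given here, and the cause was not tested except where a setting removes bases by construction. With only peaks whose −log10 q was 2 or more, region coverage was 30.7% at 6 hpa, 22.9% in 2-cell, 21.5% in 4-cell and 16.8% in 8-cell embryos, 18.9% in morula, 13.6% and 13.5% in ICM and TE, and 7.0% in PN5 zygotes. Morula then stood above 8-cell, ICM and TE were nearly equal, and the 14 hpa minus PN5 difference was 26.6 points. With all lists trimmed to equal length, coverage was 35.3% in CC, 31.5% and 29.2% at 6 and 14 hpa, 21.7% at 4-cell, 18.4% at 8-cell and 14.4% in morula, 11.7% in ICM and 12.8% in TE, with 14 hpa below 6 hpa, the 14 hpa minus PN5 difference was 18.8 points and the ICM and TE Jaccard index 0.617. Over the 7120 unique windows, which hold 371 of the zinc finger gene span, coverage was 26.0% in CC, 26.9% and 25.6% at 6 and 14 hpa, 21.9% in 2-cell, 21.3% in 4-cell and 18.6% in 8-cell embryos, 15.1% in morula, 7.74% and 8.82% in ICM and TE, and 8.84% in PN5 zygotes. CC and 14 hpa were then slightly below 6 hpa, ICM was below PN5, and TE and PN5 were nearly equal. The 14 hpa minus PN5 difference was then 16.8 points, the share of CC windows kept to the 2-cell embryo 63.2%, the Jaccard index 0.461, and the excess of the last exon in CC 42.2 points over 4 genes. The kept share was 65.5% when any base marked a window and 35.8% from 90% coverage. Zinc finger genes with at least 50% of their body covered numbered, of 10 with enough unique sequence, 10 in CC, 3 at 6 hpa, 4 at 14 hpa, 2 at 4-cell, 1 at 8-cell and 2 in morula, 2 and 1 in ICM and TE, and 1 in PN5. Of all 20, 0 were covered in 4-cell embryos with the stricter q or equal length, 0 in 8-cell embryos and in PN5 as before, and 2 in ICM with equal length. From 25% of the body, 16 were covered at 6 hpa, 8 at 2-cell, 7 at 4-cell, 6 at 8-cell and 16 in morula, 18 and 16 in ICM and TE, and 3 in PN5. From 75%, 2 were covered at 6 hpa and 8 at 14 hpa, and 0 from the 2-cell embryo on and in PN5. Restricting the exon comparison to the 18 exons with at least 3 motifs, a choice made after seeing the data, moved no median difference beyond the spread over genes.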

Other observations

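The share of windows marked in all 10 lists was 4.19% in the zinc finger gene span (98 windows), 2.30% in the gene-poor interval around Ajap1 (32 windows), 0.467% in the gene-dense zone and 0.572% on the autosomes outside the region. Windows of the zinc finger gene span in which under 50% of the 96-base words are unique were marked in 92.0% of cases in CC, 29.5% in 2-cell embryos and 40.7% in ICM, and windows with at least 90% unique words in 77.1%, 21% and 24%. Trp73, a transcription factor gene of the Ajap1 zone beyond the gene-poor interval, was covered to 0.678% in CC, 13.0% at 4-cell, 16.2% at 8-cell and 5.10% in morula, 0.993% in ICM and 17.0% in PN5.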
